A study of Homo sapiens with 24 samples.

Results

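The 9 genes described here are regulators and products of the mesenchymal cell state: the transcription factors SNAI1, SNAI2, TWIST1, ZEB1 and ZEB2, the intermediate filament protein VIM, the matrix glycoproteins FN1 and TNC, and the collagen receptor DDR2. They were taken by gene name from the 58735 genes of the count tables, and all 9 were among the 19952 genes that passed the filter on low counts. Messenger RNA was sequenced from HEK293T, a human embryonic kidney line transformed with adenovirus sequences and carrying the SV40 large T antigen. There were 6 groups of 4 libraries: MIR210HG-KO cells (written 210HG-KO in the sample titles), MIR210-KO cells and WT cells, each held for 24 h at 1% O2 (hypoxia) or at 21% O2 (normoxia). MIR210HG is the long non-coding RNA that hosts the hypoxia-induced microRNA miR-210, and every group shared the same serum-supplemented, high-glucose medium. The labels do not give the deleted bases, do not say whether a knockout was a clone or a pool, and do not say that the 4 libraries came from separate cultures. The p-values therefore measure the spread between libraries, which may be technical. Each oxygen level was deposited in a table of its own, so that oxygen level and table cannot be told apart, and in bulk RNA fewer cells of a type and less RNA per cell cannot be told apart.

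Epithelial cells can take on mesenchymal traits through a small set of transcription factors. SNAI1, SNAI2, ZEB1 and ZEB2 are zinc finger proteins that bind E-boxes and repress genes of cell junctions such as CDH1, and TWIST1 is a basic helix-loop-helix factor that acts beside them. VIM replaces or joins keratins in the cytoskeleton of such cells, FN1 and TNC are secreted into the matrix, and DDR2 is a receptor tyrosine kinase that binds fibrillar collagen. HEK293T cells express several of these genes in ordinary culture although their labels describe an epithelial morphology.

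Sequences are given where the counts bear on them: the microRNA of the edited locus, and the start regions of a pair of factors whose RNAs moved together (ZEB1 and ZEB2) and of a pair of matrix genes whose RNAs parted in MIR210-KO cells (FN1 and TNC). The mature miR-210-3p, from RefSeq, lies at chr11:568112-568133 on the minus strand of GRCh38.p14, and its seed, bases 2 to 8, is in capitals. The site it pairs with, ACGCACA, was in the 3′ UTR of 0 of the 9 genes, against 583 of 19093 genes (3.05%) in GENCODE v29. No match says only that these letters were not in these UTRs.
hsa-miR-210-3p: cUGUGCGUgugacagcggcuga

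RefSeq start regions of 300 bases, from 250 before to 50 after the start site on GRCh38.p14, were found for 6 of the 9 genes and not for SNAI1, SNAI2 and TWIST1. Where a gene had several (7 for ZEB1, 3 for DDR2), only the region nearest the 5′ end of its gene model was used. The ZEB2 start site, 144520119, lies inside its gene model, whose 5′ end is at 144524583. They were searched on both strands for the core of the hypoxia-inducible factor element (ACGTG or GCGTG, read as CACGT or CACGC on the other strand) and for the E-box CACCTG, whose other strand reads CAGGTG. The factor core was in 3 of the 6 (ZEB2, VIM and TNC), against 48.4% of 35116 regions of the same length. The E-box was in 1 of the 6 (ZEB1), against 20.6% of them. These are letter matches, with no binding measured. In the printed regions, written 5′ to 3′ along each gene's strand, capitals mark matches of either motif. ZEB1 lies at chr10:31318167-31318466, plus strand, ZEB2 at chr2:144520070-144520369, minus strand, FN1 at chr2:215436019-215436318, minus strand and TNC at chr9:115118108-115118407, minus strand.
ZEB1: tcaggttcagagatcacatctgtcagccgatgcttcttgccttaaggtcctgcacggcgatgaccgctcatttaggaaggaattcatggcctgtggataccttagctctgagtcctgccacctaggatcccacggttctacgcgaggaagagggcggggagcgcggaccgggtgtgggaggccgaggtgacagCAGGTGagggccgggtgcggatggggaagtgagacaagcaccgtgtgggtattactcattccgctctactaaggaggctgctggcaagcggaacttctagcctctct
ZEB2: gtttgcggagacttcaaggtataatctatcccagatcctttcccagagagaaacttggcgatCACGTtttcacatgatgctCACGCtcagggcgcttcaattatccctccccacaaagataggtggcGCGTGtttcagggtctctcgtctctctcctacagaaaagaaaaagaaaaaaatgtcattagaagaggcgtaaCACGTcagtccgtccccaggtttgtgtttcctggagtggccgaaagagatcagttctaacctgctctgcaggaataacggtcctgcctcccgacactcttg
FN1: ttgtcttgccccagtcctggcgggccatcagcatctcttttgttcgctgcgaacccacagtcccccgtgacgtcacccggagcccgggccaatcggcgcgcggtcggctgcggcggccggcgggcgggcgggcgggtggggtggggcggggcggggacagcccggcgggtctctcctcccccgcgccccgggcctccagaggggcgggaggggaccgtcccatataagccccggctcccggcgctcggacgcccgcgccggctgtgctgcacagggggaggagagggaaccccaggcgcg
TNC: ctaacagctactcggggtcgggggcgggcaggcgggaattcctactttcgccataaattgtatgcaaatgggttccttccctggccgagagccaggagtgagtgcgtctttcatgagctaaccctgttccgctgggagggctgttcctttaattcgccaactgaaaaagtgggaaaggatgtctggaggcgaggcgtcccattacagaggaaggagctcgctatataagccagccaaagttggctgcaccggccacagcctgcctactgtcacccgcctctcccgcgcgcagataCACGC

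Each library held 25556776 to 37858947 counts. MIR210HG had 0 counts over the 8 MIR210HG-KO libraries. In hypoxia it had 2801 counts over the MIR210-KO libraries and 2794 over the WT libraries, and in normoxia 355 over the MIR210-KO libraries and 613 over the WT libraries. The microRNA precursor gene MIR210 held 0 counts over the hypoxia MIR210HG-KO libraries, 33 over the hypoxia MIR210-KO libraries and 30 over the hypoxia WT libraries, so that these counts check the MIR210HG-KO label and do not check the MIR210-KO label. In an earlier analysis of these data 4 libraries stood apart: hypoxia WT 1 and 3, hypoxia MIR210-KO 1 and normoxia MIR210HG-KO 3. Among the hypoxia libraries they differed in the balance of long and short genes. The median log2 level of protein-coding genes of at least 8000 bases minus that of genes of at most 1500 bases was 0.00700, 0.433, -0.120 and 0.318 in hypoxia WT 1 to 4, and -0.000861, 0.314, 0.213 and 0.286 in hypoxia MIR210-KO 1 to 4. It was 0.337 to 0.399 in hypoxia MIR210HG-KO and -0.384 to -0.175 in normoxia. ZEB1, ZEB2, FN1, TNC and DDR2 have gene models over 8000 bases. The summed level of 6 epithelial markers was 55.2 to 63.5 CPM (counts scaled to library size) in hypoxia MIR210HG-KO, 179 to 203 CPM in hypoxia MIR210-KO and 65.7 to 84.9 CPM in hypoxia WT, with KRT19 at 0 in every hypoxia library. In normoxia it was 65.4 to 73.3 CPM in MIR210HG-KO, 173 to 194 CPM in MIR210-KO and 62.9 to 67.0 CPM in WT. The epithelial sum was highest in MIR210-KO at each oxygen level. KRT8 weighs heavily in it, at 118 CPM in hypoxia MIR210-KO and 28.8 CPM in hypoxia WT. Of 5 epithelial markers tested, 4 were called higher and 0 lower in MIR210-KO against WT at each oxygen level. CLDN4 was alike in MIR210-KO and WT (1.91 and 1.99 CPM in hypoxia, 0.689 and 0.696 CPM in normoxia). The sum of 10 fibroblast markers was 25.4 to 47.6 CPM over all libraries, with FAP at 0 in every hypoxia library. In WT it was 43.7 to 47.6 CPM in normoxia and 25.4 to 28.6 CPM in hypoxia. In MIR210HG-KO it was 31.7 to 40.8 CPM in normoxia and 26.9 to 28.9 CPM in hypoxia. In MIR210-KO it was 34.4 to 39.4 CPM in normoxia and 37.1 to 39.6 CPM in hypoxia. COL1A1 and COL3A1 weigh heavily in the fibroblast sum, at 26.9 and 14.6 CPM in normoxia WT. They stood at 31.0 and 4.06 CPM in normoxia MIR210-KO and at 33.0 and 1.67 CPM in hypoxia MIR210-KO. The sum of 7 endothelial and blood markers was 0.214 to 0.969 CPM.

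Per kilobase of gene model, VIM was the most abundant of the 9 RNAs in all 6 groups, at 32.0 to 85.1 CPM per kilobase in group means. In hypoxia WT cells it averaged 76.2 ± 12.0 CPM per kilobase (SD, n = 4), followed by SNAI2 at 32.2 ± 2.34, DDR2 at 29.0 ± 3.83, FN1 at 11.1 ± 1.71, TWIST1 at 8.31 ± 1.25, ZEB1 at 7.03 ± 0.767, ZEB2 at 2.38 ± 0.289, TNC at 1.39 ± 0.248 and SNAI1 at 0.423 ± 0.219. The libraries of SNAI2 and DDR2 overlapped, as did those of FN1 and TWIST1 and those of TWIST1 and ZEB1. In normoxia WT cells the order was VIM (38.5 CPM per kilobase), DDR2 (16.9), SNAI2 (15.0), TWIST1 (7.98), FN1 (6.27), ZEB1 (3.55), ZEB2 (1.25), TNC (0.723) and SNAI1 (0.534), and only the last pair overlapped. The order depends on gene-model length, 8650 bases for ZEB1 and 25058 for ZEB2, whose normoxia WT means were 30.7 and 31.4 CPM. The knockouts kept VIM first and changed the order below it. SNAI2 stood at 4.41 CPM per kilobase in hypoxia MIR210-KO cells, in sixth place, and DDR2 at 2.93 CPM per kilobase in hypoxia MIR210HG-KO cells, also in sixth place. Among 14537 protein-coding genes SNAI2 stood at percentile 47.4 in hypoxia MIR210-KO cells, against 91.9 in hypoxia WT cells, and DDR2 at percentile 38.6 in hypoxia MIR210HG-KO cells, against 90.7 in hypoxia WT cells. SNAI1 was low throughout, at percentile 12.3 to 20.6.

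**Figure D1:**
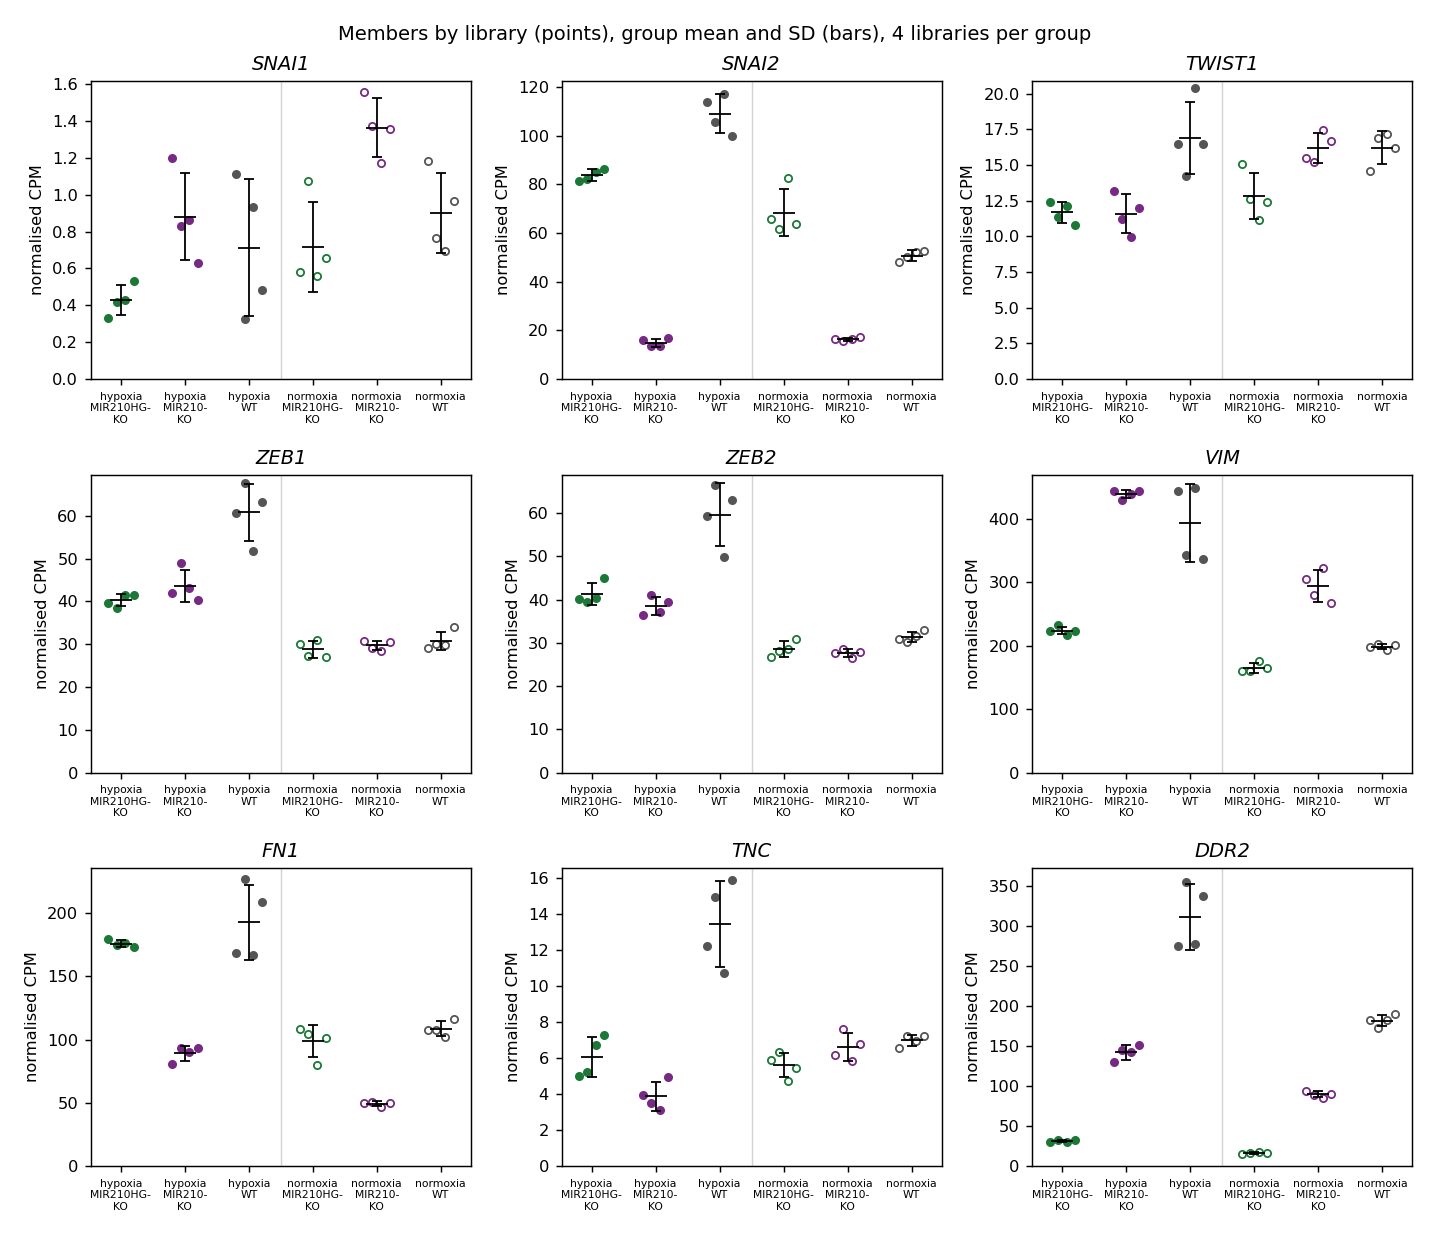
Normalised CPM of the 9 genes (y axis, 1 panel a gene) in every library; points are libraries, filled for hypoxia and open for normoxia, and bars are group means. SNAI2 is low in both MIR210-KO groups (13.5 to 17.2 CPM), and DDR2 is low in both MIR210HG-KO groups (15.4 to 33.1 CPM).

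The knockout comparisons ask how these genes differed between MIR210HG-KO, MIR210-KO and WT cells at each oxygen level. An effect of the edited gene and any other difference between the cell lines cannot be told apart here. In hypoxia, 7 of the 9 fell and none rose in MIR210HG-KO cells against WT, and 7 fell and none rose in MIR210-KO cells against WT; the 2 comparisons share the WT libraries. Of all genes tested, 30.2% fell and 24.4% rose (54.6% in either direction) in MIR210HG-KO cells, and 27.7% fell and 28.2% rose (55.9% in either direction) in MIR210-KO cells. In both comparisons 7 of the 9 had groups that did not overlap in normalised CPM, against 45.0% of all genes for MIR210HG-KO and 45.1% for MIR210-KO. The median log2 fold change of the 9 was -0.59 in MIR210HG-KO and -0.63 in MIR210-KO, against -0.034 and 0.019 over all genes. A gene is called changed here at an adjusted p of at most 0.05 in edgeR's quasi-likelihood test, with Benjamini-Hochberg adjustment over all 19952 genes, and every adjusted p given is from that test.

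In normoxia fewer of the 9 moved. Against WT, 1 rose and 3 fell in MIR210HG-KO cells, where 15.6% of all genes rose and 19.6% fell (35.2% in either direction). In MIR210-KO cells 1 rose and 4 fell, where 22.6% of all genes rose and 21.6% fell (44.2% in either direction). Groups did not overlap for 4 of the 9 in MIR210HG-KO (35.2% of all genes) and for 5 of the 9 in MIR210-KO (47.7%). Between the knockouts, 3 of the 9 were higher and 3 lower in MIR210HG-KO than in MIR210-KO cells in hypoxia (26.0% and 29.0% of all genes, 55.1% in either direction), with 6 not overlapping (50.6%). In normoxia 2 were higher and 4 lower (23.4% and 25.8%, 49.2% in either direction), with 6 not overlapping (44.4%). Against WT in hypoxia every call among the 9 was a fall, where the calls over all genes were divided between the directions. VIM in hypoxia MIR210-KO lay near the threshold (0.16, edgeR adjusted p = 0.0542) and was called higher in several alternative fits given below. Without the 4 libraries that stood apart the calls in hypoxia were 0 higher and 8 lower in MIR210HG-KO (23.8% and 27.9% of all genes in that fit) and 2 higher and 7 lower in MIR210-KO (26.7% and 25.6%).

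**Figure D2:**
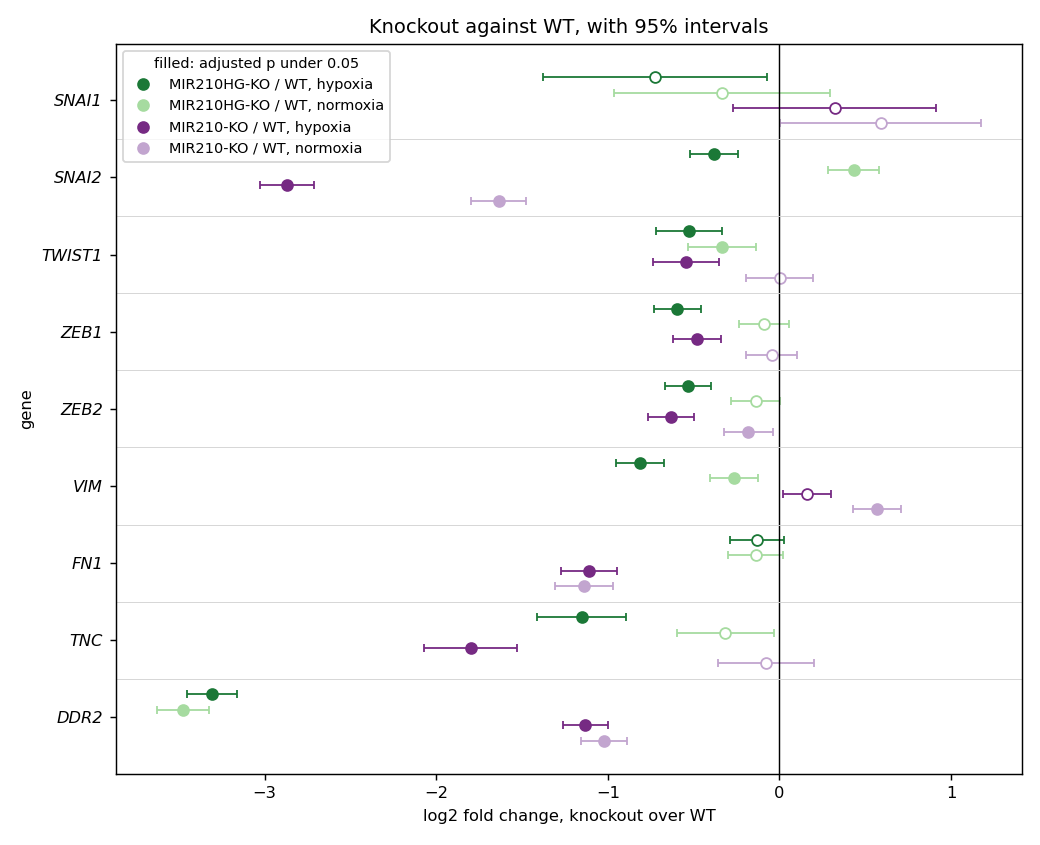
Log2 fold change of each gene (x axis) in MIR210HG-KO and MIR210-KO cells against WT, at each oxygen level; bars are 95% intervals and filled points have an adjusted p under 0.05. SNAI2 is lowest in hypoxia MIR210-KO (-2.87), DDR2 in MIR210HG-KO (-3.31 in hypoxia, -3.48 in normoxia).

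SNAI2 (ENSG00000019549, chr8:48917604-48921740, minus strand of GRCh38), known as Slug, was lowest in MIR210-KO cells at both oxygen levels. In hypoxia it had 81.4, 82.3, 85.1 and 86.5 CPM in MIR210HG-KO libraries 1 to 4, 16.0, 13.5, 13.6 and 16.7 CPM in MIR210-KO and 114, 106, 117 and 99.7 CPM in WT. In normoxia it had 65.8, 61.6, 82.5 and 63.9 CPM in MIR210HG-KO, 16.3, 15.5, 16.3 and 17.2 CPM in MIR210-KO and 48.0, 50.3, 52.2 and 52.6 CPM in WT. At each oxygen level the 3 genotypes did not overlap, with MIR210-KO lowest, while MIR210HG-KO lay below WT in hypoxia and above it in normoxia. In hypoxia SNAI2 fell 7.30-fold in MIR210-KO (log2 fold change -2.87 ± 0.081 (SE), edgeR adjusted p = 1.80e-23) and by less in MIR210HG-KO (-0.38 ± 0.072, adjusted p = 4.22e-05). In normoxia it fell 3.11-fold in MIR210-KO (-1.64 ± 0.081, adjusted p = 5.79e-17) and rose in MIR210HG-KO (0.43 ± 0.075, adjusted p = 2.40e-05). The difference between the knockouts, MIR210HG-KO over MIR210-KO, was 2.49 ± 0.080 in hypoxia (adjusted p = 3.43e-22) and 2.07 ± 0.081 in normoxia (adjusted p = 6.50e-20). The 20 tested genes within 5 Mb of SNAI2 had a median log2 fold change of 0.23 in hypoxia MIR210-KO against WT and of 0.10 in normoxia.

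SNAI1 (ENSG00000124216, chr20:49982999-49988886, plus strand), the related Snail repressor, was near the limit of what these libraries counted, at 12 to 44 counts a library. It ranged over 0.332 to 0.534 CPM in hypoxia MIR210HG-KO, 0.629 to 1.20 CPM in hypoxia MIR210-KO and 0.325 to 1.11 CPM in hypoxia WT. In normoxia it ranged over 0.559 to 1.08 CPM in MIR210HG-KO, 1.17 to 1.55 CPM in MIR210-KO and 0.696 to 1.18 CPM in WT. Neither knockout passed the test against WT at either oxygen level: the log2 fold changes were -0.72 ± 0.33 (adjusted p = 0.0655) in hypoxia MIR210HG-KO, 0.32 ± 0.30 (0.376) in hypoxia MIR210-KO, -0.34 ± 0.32 (0.452) in normoxia MIR210HG-KO and 0.59 ± 0.30 (0.110) in normoxia MIR210-KO. SNAI1 was lower in MIR210HG-KO than in MIR210-KO cells (log2 difference -1.05 ± 0.33 in hypoxia, edgeR adjusted p = 0.00724, and -0.93 ± 0.31 in normoxia, adjusted p = 0.0130). The hypoxia difference was no longer called with each library's balance of long and short genes as a covariate (the length covariate), an alternative chosen after the data were seen (-0.65, adjusted p = 0.0685). In the fit of the compared groups only, normoxia MIR210-KO against WT was called (0.58, edgeR adjusted p = 0.0361). The hypoxia WT libraries split, with 1 and 3 above 2 and 4. Without hypoxia WT 2 or without hypoxia WT 4 the comparison of hypoxia MIR210HG-KO with WT was called (-0.97 and -0.87, edgeR adjusted p = 0.0106 and 0.0373). Without the 4 libraries that stood apart, which include hypoxia WT 1 and 3, its sign turned (0.073), and hypoxia MIR210-KO against WT was called (0.93, adjusted p = 0.0352). The 84 tested genes within 5 Mb of SNAI1 had a median log2 fold change of -0.41 in hypoxia MIR210-KO against WT (11 higher, 46 lower) and -0.40 in normoxia (6 higher, 52 lower).

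TWIST1 (ENSG00000122691, chr7:19020991-19117672, minus strand) ranged over 9.94 to 20.4 CPM across all 24 libraries. In hypoxia it had 12.4, 11.4, 12.1 and 10.8 CPM in MIR210HG-KO, 13.2, 11.2, 9.94 and 12.0 CPM in MIR210-KO and 16.4, 14.2, 20.4 and 16.5 CPM in WT, with both knockouts below every WT library. In normoxia it had 15.1, 12.6, 11.2 and 12.4 CPM in MIR210HG-KO, 15.5, 15.2, 17.5 and 16.7 CPM in MIR210-KO and 14.6, 16.9, 17.2 and 16.2 CPM in WT, and all groups overlapped WT. In hypoxia TWIST1 fell in MIR210HG-KO (-0.53 ± 0.099, edgeR adjusted p = 3.38e-05) and MIR210-KO (-0.54 ± 0.098, 2.00e-05), and the difference between them was 0.015 (95% interval -0.18 to 0.21). In normoxia it fell in MIR210HG-KO (-0.34 ± 0.10, adjusted p = 0.00934), a call lost without normoxia MIR210HG-KO 3 (-0.27, adjusted p = 0.0529), and in MIR210-KO the interval of its log2 fold change against WT was -0.19 to 0.20.

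ZEB1 (ENSG00000148516, chr10:31318495-31529814, plus strand) and ZEB2 (ENSG00000169554, chr2:144364364-144524583, minus strand), the long zinc finger and homeodomain repressors, moved together. In hypoxia ZEB1 had 39.6, 38.5, 41.4 and 41.6 CPM in MIR210HG-KO, 41.9, 49.0, 43.1 and 40.4 CPM in MIR210-KO and 60.5, 67.6, 51.9 and 63.3 CPM in WT. ZEB2 had 40.2, 39.5, 40.5 and 44.9 CPM in hypoxia MIR210HG-KO, 36.4, 41.1, 37.3 and 39.5 CPM in hypoxia MIR210-KO and 59.4, 66.6, 49.8 and 63.0 CPM in hypoxia WT. For both genes every knockout library in hypoxia was below every WT library, and the knockouts overlapped each other. In normoxia ZEB1 averaged 28.8 ± 1.97 CPM in MIR210HG-KO, 29.7 ± 1.09 CPM in MIR210-KO and 30.7 ± 2.18 CPM in WT (SD, n = 4 each), and ZEB2 averaged 28.6 ± 1.79, 27.7 ± 0.871 and 31.4 ± 1.18 CPM in the same groups.

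Against WT in hypoxia, ZEB1 fell in MIR210HG-KO (-0.59 ± 0.071, edgeR adjusted p = 1.90e-08) and in MIR210-KO (-0.48 ± 0.071, 7.56e-07). ZEB2 fell in MIR210HG-KO (-0.53 ± 0.069, edgeR adjusted p = 8.37e-08) and in MIR210-KO (-0.63 ± 0.069, 2.42e-09). The knockouts differed by -0.12 for ZEB1 (95% interval -0.26 to 0.025) and 0.098 for ZEB2 (-0.039 to 0.23). The ZEB1 difference was called without the 4 libraries that stood apart (-0.13, edgeR adjusted p = 0.0481) and with the length covariate (-0.20, 0.00662). In normoxia the one call was ZEB2 in MIR210-KO (-0.18 ± 0.073, adjusted p = 0.0429), which was lost in 7 of the 8 fits without 1 of its libraries, under DESeq2 (adjusted p = 0.0600), with upper quartile factors (0.0689), with no filter on low counts (0.0731) and without the mitochondrial genome (0.0692). The intervals against WT were -0.24 to 0.058 for ZEB1 and -0.28 to 0.0048 for ZEB2 in MIR210HG-KO, and -0.19 to 0.10 for ZEB1 in MIR210-KO. With the length covariate ZEB2 was called lower in normoxia MIR210HG-KO (-0.15, edgeR adjusted p = 0.0285). Strand was not stated for the counting. ZEB1-AS1, on the opposite strand, held 5021 counts over the 24 libraries, against 29466 for ZEB1, and shares 366 exon bases with it, so reads there cannot be told apart. Over the 6 group means, each centred on its own average, ZEB1 and ZEB2 differed by a root mean square of 0.0753 log2 units, the smallest of any pair of the 9, and ZEB1 and VIM came next at 0.351. The closeness is not particular to the pair: FAM210A lay nearer to ZEB1 (0.0630) and SYP nearer to ZEB2 (0.0479).

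VIM (ENSG00000026025, chr10:17228259-17237593, plus strand), the main intermediate filament of mesenchymal cells, went opposite ways in the knockouts in normoxia. It had 159.5, 159, 175 and 166 CPM in normoxia MIR210HG-KO, 305, 279.8, 323 and 267 CPM in normoxia MIR210-KO and 197, 202, 194 and 200.2 CPM in normoxia WT, and the 3 groups did not overlap. In hypoxia it had 223, 232, 217 and 223 CPM in MIR210HG-KO, 443, 430.1, 439 and 444 CPM in MIR210-KO and 444, 342, 449 and 337 CPM in WT. Here MIR210HG-KO was below the other groups, MIR210-KO overlapped WT, and of WT libraries 1 and 3 stood above 2 and 4.

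VIM rose in normoxia MIR210-KO against WT (0.57 ± 0.071, edgeR adjusted p = 7.02e-08) and fell in normoxia MIR210HG-KO (-0.27 ± 0.072, 0.00382). In hypoxia it fell 1.76-fold in MIR210HG-KO (-0.81 ± 0.071, edgeR adjusted p = 2.95e-11). In hypoxia MIR210-KO it was not called (0.16 ± 0.070, edgeR adjusted p = 0.0542), but it was called without hypoxia WT 1 or hypoxia WT 3 (0.22 to 0.23), without the 4 libraries that stood apart (0.36, adjusted p = 6.59e-08) and with the replicate number as a block (0.17, adjusted p = 0.0358). It was also called higher with upper quartile factors (0.22, edgeR adjusted p = 0.00625) and with the length covariate (0.20, 0.000892). The same held with no filter on low counts (0.18, edgeR adjusted p = 0.0140) and with a stricter filter (0.17, 0.0316). With DESeq2, RLE factors, the compared groups only or the mitochondrial genome left out it stayed uncalled. VIM was lower in MIR210HG-KO than in MIR210-KO (log2 difference -0.97 ± 0.071 in hypoxia, adjusted p = 3.34e-13, and -0.83 ± 0.072 in normoxia, adjusted p = 1.70e-11). The 48 tested genes within 5 Mb of VIM moved the same way in MIR210HG-KO: their median log2 fold change against WT was -0.74 in hypoxia (2 higher, 37 lower) and -0.55 in normoxia (0 higher, 39 lower). In MIR210-KO that median was 0.083 in hypoxia and 0.18 in normoxia. Whether the change of VIM is separate from that of its neighbours was not tested. VIM-AS1, on the opposite strand, held 1605 counts, against 214161 for VIM, and shares 641 exon bases with it.

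**Figure D3:**
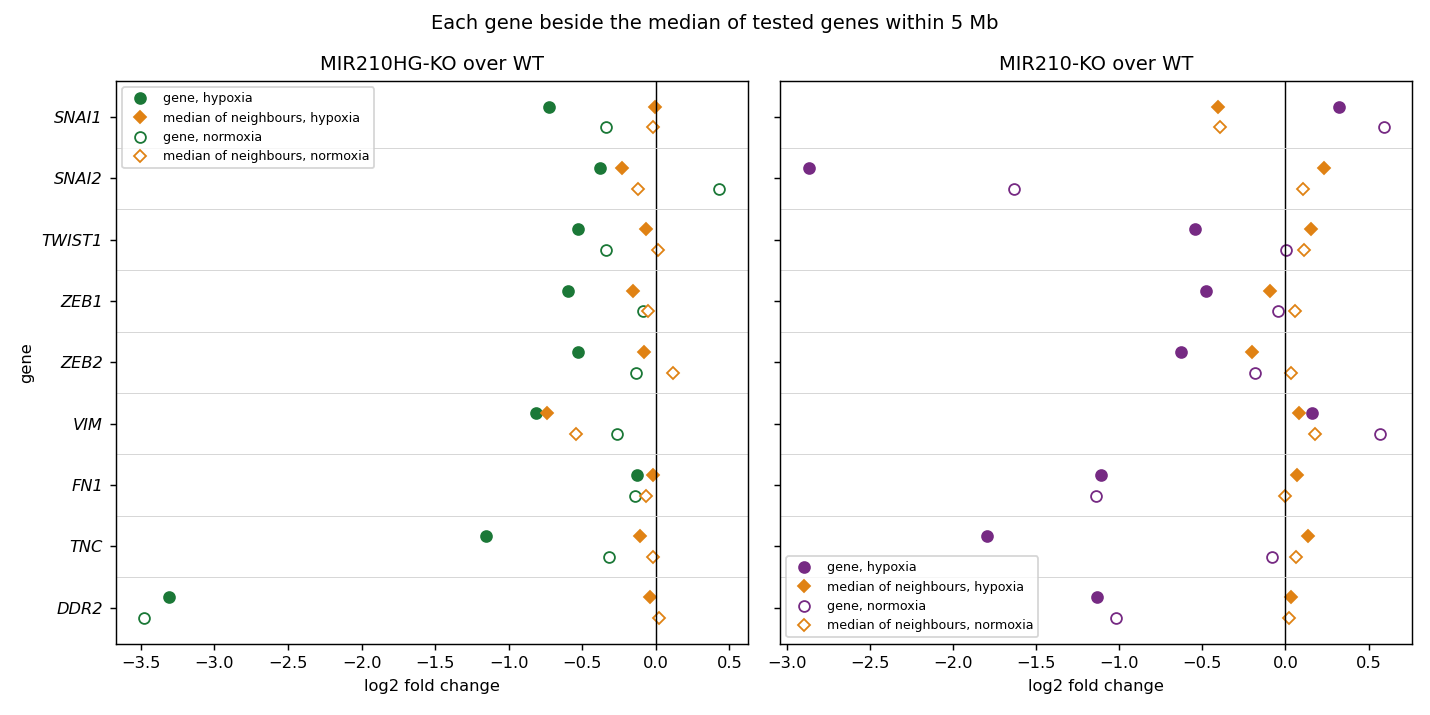
Log2 fold change of each of the 9 genes against WT beside the median of the tested genes within 5 Mb of it, MIR210HG-KO on the left and MIR210-KO on the right, in hypoxia and normoxia. Around VIM the neighbours' median is -0.74 in hypoxia MIR210HG-KO, while around DDR2, which changed more, it is -0.04.

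FN1 (ENSG00000115414, chr2:215360440-215436172, minus strand), the cell-adhesive glycoprotein of the matrix, was lower in MIR210-KO at both oxygen levels. In hypoxia it had 179.6, 175, 177 and 173 CPM in MIR210HG-KO, 80.6, 93.3, 90.0 and 93.3 CPM in MIR210-KO and 169, 227, 167 and 208 CPM in WT. In normoxia it had 109, 104, 80.1 and 101 CPM in MIR210HG-KO, 49.9, 51.1, 46.5 and 49.6 CPM in MIR210-KO and 108, 107, 102 and 116 CPM in WT. At each oxygen level every MIR210-KO library was below every other library, while MIR210HG-KO overlapped WT. FN1 fell 2.16-fold in hypoxia MIR210-KO (-1.11 ± 0.082, edgeR adjusted p = 4.19e-13) and 2.20-fold in normoxia MIR210-KO (-1.14 ± 0.085, 9.33e-13). In MIR210HG-KO against WT it was -0.13 ± 0.081 in hypoxia (95% interval -0.29 to 0.027, adjusted p = 0.172) and -0.14 ± 0.083 in normoxia (-0.30 to 0.023, adjusted p = 0.204). The hypoxia value was called without hypoxia WT 3 (-0.18, edgeR adjusted p = 0.0486) without the 4 libraries that stood apart (-0.31, adjusted p = 5.11e-07) and with the length covariate (-0.27, 0.000322), under which the normoxia value was called too (-0.15, 0.0333). FN1 was higher in MIR210HG-KO than in MIR210-KO by 0.98 ± 0.082 in hypoxia (adjusted p = 8.02e-12) and 1.00 ± 0.085 in normoxia (1.23e-11).

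TNC (ENSG00000041982, chr9:115019578-115118257, minus strand), the anti-adhesive tenascin of developing and injured tissue, differed between genotypes chiefly in hypoxia. There it had 4.97, 5.24, 6.74 and 7.26 CPM in MIR210HG-KO, 3.96, 3.48, 3.09 and 4.94 CPM in MIR210-KO and 12.2, 14.9, 10.7 and 15.9 CPM in WT. In normoxia it had 5.86, 6.34, 4.73 and 5.45 CPM in MIR210HG-KO, 6.18, 7.59, 5.85 and 6.75 CPM in MIR210-KO and 6.54, 7.23, 6.92 and 7.19 CPM in WT. In hypoxia the 3 genotypes did not overlap, with MIR210-KO lowest. In normoxia all libraries lay between 4.73 and 7.59 CPM, and those of MIR210HG-KO were below every WT library. TNC fell 3.48-fold in hypoxia MIR210-KO (-1.80 ± 0.14, edgeR adjusted p = 9.36e-13) and 2.22-fold in hypoxia MIR210HG-KO (-1.15 ± 0.13, 8.69e-09), and the knockouts differed by 0.65 ± 0.15 (0.000331). In normoxia the log2 fold changes were -0.32 ± 0.14 in MIR210HG-KO (edgeR adjusted p = 0.0889) and -0.080 ± 0.14 in MIR210-KO (0.689), and neither was called. The MIR210HG-KO value was called in the fit of the compared groups only (-0.30, edgeR adjusted p = 0.0270) and with the length covariate (-0.33, 0.0449).

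DDR2 (ENSG00000162733, chr1:162631373-162787400, plus strand), the fibrillar collagen receptor, was lower in both knockouts at both oxygen levels. In hypoxia it had 30.6, 33.1, 29.7 and 32.3 CPM in MIR210HG-KO, 129.6, 145, 142 and 152 CPM in MIR210-KO and 275, 356, 278 and 337 CPM in WT. In normoxia it had 15.4, 16.4, 17.2 and 16.4 CPM in MIR210HG-KO, 94.5, 88.7, 85.5 and 89.7 CPM in MIR210-KO and 182, 173, 182 and 190.3 CPM in WT. At each oxygen level the 3 genotypes did not overlap, in the order MIR210HG-KO, MIR210-KO, WT. In MIR210HG-KO DDR2 fell 9.91-fold in hypoxia (-3.31 ± 0.074, edgeR adjusted p = 8.79e-26) and 11.1-fold in normoxia (-3.48 ± 0.078, 1.70e-25). In MIR210-KO it fell 2.19-fold in hypoxia (-1.13 ± 0.067, edgeR adjusted p = 1.82e-15) and 2.03-fold in normoxia (-1.02 ± 0.068, 6.47e-14). The 83 tested genes within 5 Mb of DDR2 had medians of -0.041 in hypoxia and 0.020 in normoxia in MIR210HG-KO against WT. DDR2 was lower in MIR210HG-KO than in MIR210-KO (log2 difference -2.18 ± 0.072 in hypoxia, edgeR adjusted p = 5.70e-22, and -2.45 ± 0.076 in normoxia, adjusted p = 1.65e-22).

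The oxygen comparisons ask how 24 h of hypoxia altered the genes within each genotype. In WT cells 7 of the 9 rose and none fell, where 29.6% of all genes rose and 30.7% fell (60.3% in either direction), and 7 did not overlap (53.2%). In MIR210HG-KO cells 6 rose and none fell (25.7% and 28.3% of all genes, 54.1% in either direction), with 6 not overlapping (46.4%). In MIR210-KO cells 5 rose and 2 fell (29.3% and 29.5%, 58.7% in either direction), with 7 not overlapping (54.1%). Of 6 fibroblast markers tested, 0 rose and 3 fell in WT (median -0.71), 1 rose and 2 fell in MIR210HG-KO, and 1 rose and 1 fell in MIR210-KO. Of 12 other mesenchymal markers, 3 rose and 2 fell in WT (median -0.064), 4 and 1 in MIR210HG-KO, and 6 and 1 in MIR210-KO. The median log2 fold change of the 9 was 0.44 in MIR210HG-KO, 0.48 in MIR210-KO and 0.93 in WT, against 0.027, 0.035 and 0.0020 over all genes. Under upper quartile scaling the median of all genes moved to 0.16 in MIR210HG-KO and 0.18 in MIR210-KO, and the calls over all genes became 7074 higher and 4164 lower in MIR210HG-KO (5135 and 5653 with the trimmed-mean factors used here) and 7770 higher and 4348 lower in MIR210-KO (5836 and 5878). The 9 genes kept their counts in each direction under that scaling. Genes of at least 8000 bases had a median of 0.035 in WT and those of at most 1500 bases -0.33. The balance of long and short genes was higher in every hypoxia library (-0.120 or more) than in every normoxia library (-0.175 or less). The length covariate therefore overlaps with oxygen level, and a response that changes under it cannot be assigned to length or to oxygen.

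In WT cells SNAI2 rose 2.15-fold in hypoxia (1.10 ± 0.074, edgeR adjusted p = 4.28e-14), ZEB1 1.98-fold (0.99 ± 0.073, 3.50e-13) and ZEB2 1.90-fold (0.93 ± 0.070, 6.99e-13). VIM rose 1.98-fold (0.99 ± 0.072, edgeR adjusted p = 2.55e-13), TNC 1.93-fold (0.95 ± 0.13, 2.38e-07), FN1 1.78-fold (0.83 ± 0.082, 2.46e-10) and DDR2 1.71-fold (0.78 ± 0.067, 1.15e-11). TWIST1 was not called (0.060 ± 0.098, edgeR adjusted p = 0.619), but was called higher with the length covariate (0.32, 0.0220). SNAI1 was not called either (-0.36 ± 0.31, edgeR adjusted p = 0.322), but was called lower without the 4 libraries that stood apart (-1.16, adjusted p = 0.00519). In hypoxia WT libraries 1 and 3 were below 2 and 4 for all 5 genes over 8000 bases and above them for SNAI1, SNAI2 and VIM. All 7 rises were still called without the 4 libraries that stood apart, at 0.77 for VIM to 1.14 for TNC.

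The responses of FN1 and DDR2 were not called different between any pair of genotypes. FN1 rose by 0.84 ± 0.082 in MIR210HG-KO (edgeR adjusted p = 3.97e-10), 0.86 ± 0.085 in MIR210-KO (3.47e-10) and 0.83 in WT. DDR2 rose by 0.94 ± 0.077 in MIR210HG-KO (edgeR adjusted p = 7.80e-12), 0.67 ± 0.068 in MIR210-KO (6.79e-10) and 0.78 in WT. The difference of the responses, tested as an interaction, was 0.0077 for FN1 in MIR210HG-KO minus WT (95% interval -0.22 to 0.23) and 0.029 in MIR210-KO minus WT (-0.20 to 0.26). For DDR2 it was 0.17 (-0.032 to 0.37) and -0.11 (-0.30 to 0.075). With the 4 libraries that stood apart left out, FN1's response was smaller in MIR210HG-KO than in WT (-0.25, edgeR adjusted p = 0.00328) and DDR2's smaller in MIR210-KO than in WT (-0.22, 0.00740) and than in MIR210HG-KO (MIR210HG-KO minus MIR210-KO 0.26, 0.0157). With the length covariate DDR2's response was also called smaller in MIR210-KO than in WT (-0.15, edgeR adjusted p = 0.0463).

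The response was called lower than in WT in both knockouts for SNAI2, ZEB1, ZEB2, VIM and TNC, and in MIR210-KO also for TWIST1. The interaction was negative and called for 5 of the 9 in MIR210HG-KO minus WT, where 12.2% of all genes had a lower and 10.2% a higher response (22.5% in either direction), and for 6 of the 9 in MIR210-KO minus WT (14.0% lower, 12.5% higher, 26.5% in either direction). No positive interaction against WT was called. Both share the WT libraries. In MIR210HG-KO minus MIR210-KO 2 of the 9 were called, both positive (2.03% higher, 1.51% lower, 3.54% in either direction). SNAI2 in hypoxia changed by 0.29 ± 0.073 in MIR210HG-KO (edgeR adjusted p = 0.00116), a rise with overlapping libraries, and by -0.13 ± 0.085 in MIR210-KO (0.197), not called. Without the 4 libraries that stood apart it was called lower in MIR210-KO (-0.17, edgeR adjusted p = 0.0285). Its interaction was -0.81 ± 0.10 for MIR210HG-KO minus WT (edgeR adjusted p = 8.52e-07) and -1.23 ± 0.11 for MIR210-KO minus WT (8.31e-10). SNAI2's difference between the knockouts was 0.42 ± 0.11 (adjusted p = 0.0304) and lost its call in 13 of the 16 fits without 1 library (0.37 to 0.45).

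TNC parted from FN1 in hypoxia. It fell in hypoxia MIR210-KO cells against normoxia (-0.77 ± 0.15, edgeR adjusted p = 4.09e-05), was not called in MIR210HG-KO (0.11 ± 0.14, 0.534) and rose in WT. Its interactions were -0.84 ± 0.20 for MIR210HG-KO minus WT (edgeR adjusted p = 0.00204), -1.72 ± 0.20 for MIR210-KO minus WT (7.51e-08) and 0.88 ± 0.21 between the knockouts (0.0120). ZEB1 rose by 0.48 ± 0.074 in MIR210HG-KO (edgeR adjusted p = 1.60e-06) and 0.55 ± 0.073 in MIR210-KO (1.20e-07), and its interactions were -0.50 ± 0.10 (0.000532) and -0.43 ± 0.10 (0.00182). ZEB2 rose by 0.53 ± 0.071 in MIR210HG-KO (edgeR adjusted p = 1.73e-07) and 0.48 ± 0.072 in MIR210-KO (1.04e-06), with interactions of -0.39 ± 0.10 (0.00417) and -0.45 ± 0.10 (0.000993). With the length covariate, which overlaps with oxygen level, ZEB1 and ZEB2 in MIR210HG-KO (0.17 and 0.17) and ZEB2 in MIR210-KO (0.19) were no longer called.

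VIM rose by 0.44 ± 0.072 in hypoxia MIR210HG-KO against normoxia (edgeR adjusted p = 4.16e-06) and 0.58 ± 0.071 in MIR210-KO (2.62e-08), with interactions of -0.55 ± 0.10 (0.000165) and -0.41 ± 0.10 (0.00258). These interactions were -0.30 (edgeR adjusted p = 0.000480) and -0.20 (0.0155) without the 4 libraries that stood apart. TWIST1 fell in hypoxia MIR210-KO (-0.48 ± 0.10, edgeR adjusted p = 0.000122), a call lost with the length covariate (-0.17, 0.322), and was not called in MIR210HG-KO (-0.13 ± 0.10, 0.289). Its interaction was called for MIR210-KO minus WT (-0.54 ± 0.14, edgeR adjusted p = 0.00382) and not for MIR210HG-KO minus WT (-0.19 ± 0.14, 0.362). Between the knockouts it was not called (0.35 ± 0.14, edgeR adjusted p = 0.193), but was without the 4 libraries that stood apart (0.36, 0.0477) and with the length covariate (0.43, 0.0287). SNAI1 was not called in MIR210HG-KO (-0.75 ± 0.35, edgeR adjusted p = 0.0673) or MIR210-KO (-0.63 ± 0.29, 0.0643). It was called lower in hypoxia in both without the 4 libraries that stood apart (-0.86 and -0.82), and in MIR210-KO in the fit of the compared groups only (-0.61, edgeR adjusted p = 0.0397). It was also called lower in MIR210-KO without hypoxia MIR210-KO 1 alone (-0.83, adjusted p = 0.0272).

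**Figure D4:**
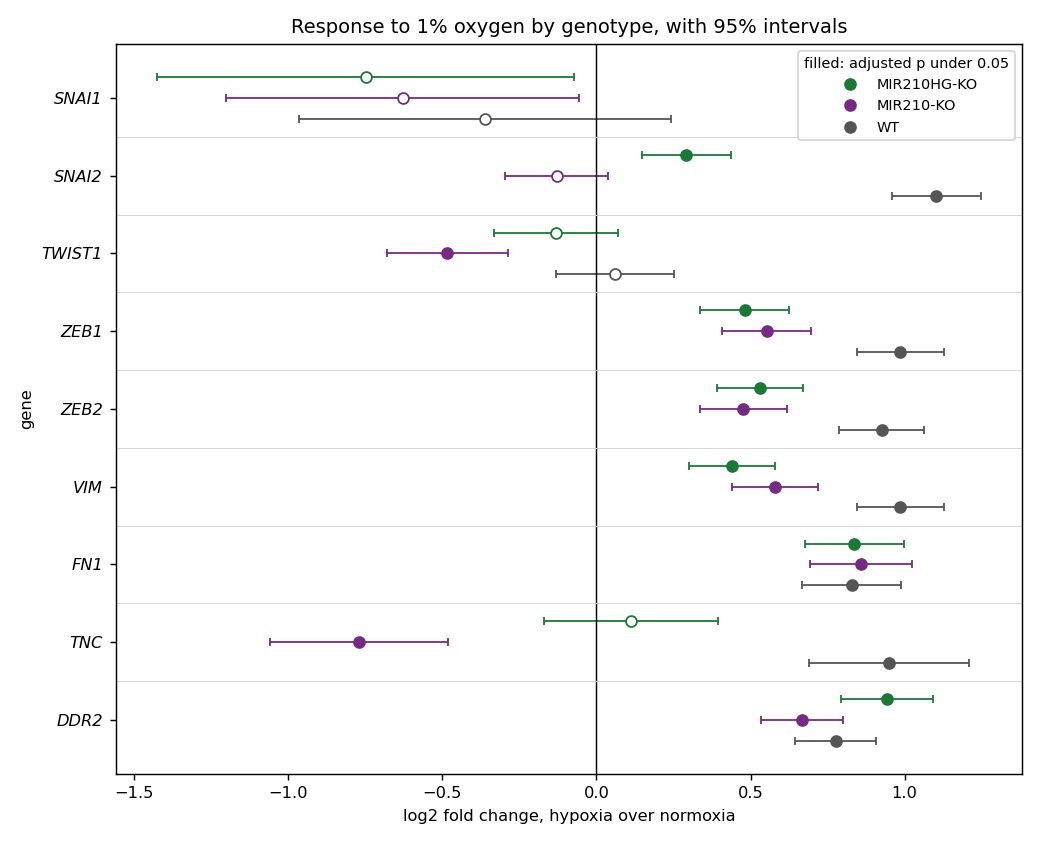
Log2 fold change of each gene (x axis) in hypoxia against normoxia within MIR210HG-KO, MIR210-KO and WT cells; bars are 95% intervals. The WT response lies above both knockouts for SNAI2, ZEB1, ZEB2, VIM and TNC, and the 3 responses of FN1 lie between 0.83 and 0.86.

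A list of epithelial genes described as repressed by SNAI and ZEB proteins differed between the knockouts. The list was chosen with earlier results of these data known, so its counts are no independent test. Of 16 tested, 14 were higher and 1 lower in hypoxia MIR210-KO against WT (median 1.27), and 11 higher and 1 lower in normoxia (median 0.93). In MIR210HG-KO 3 were higher and 2 lower in hypoxia (median -0.19), and 0 higher and 6 lower in normoxia (median -0.35). In MIR210HG-KO against MIR210-KO 1 was higher and 13 lower in hypoxia (median -1.70), and 1 higher and 11 lower in normoxia (median -0.99). Of all genes, 28.2% were higher and 27.7% lower in hypoxia MIR210-KO against WT, and 22.6% and 21.6% in normoxia. For MIR210HG-KO against WT the shares were 24.4% and 30.2% in hypoxia, and 15.6% and 19.6% in normoxia. For MIR210HG-KO against MIR210-KO they were 26.0% and 29.0% in hypoxia, and 23.4% and 25.8% in normoxia. CDH1, the E-cadherin gene, had 14.7 against 3.05 CPM in hypoxia MIR210-KO and WT (log2 fold change 2.27 ± 0.10, edgeR adjusted p = 1.99e-18). SPINT1, a membrane protease inhibitor, had 11.5 against 1.36 CPM (3.08 ± 0.14, 2.13e-18), and MARVELD2, tricellulin of tight junctions, 5.35 against 0.501 CPM (3.41 ± 0.18, 5.91e-17). MAL2, a protein of apical transport, had 3.45 against 0.168 CPM (4.36 ± 0.33, 8.78e-13). In normoxia the largest changes in MIR210-KO were in MAL2 (4.92), MARVELD2 (3.21), SPINT1 (2.97) and EPCAM, an epithelial adhesion molecule (1.80). In normoxia MIR210HG-KO, MARVELD3 (-0.75), TJP3 (-0.67), CDH1 (-0.41) and LLGL2 (-0.28) were lower. CDH1, EPCAM and CLDN4 are also among the 6 epithelial markers. The MIR210-KO groups held low SNAI2 RNA beside high RNA of these genes, and whether one bears on the other was not tested.

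The keratins and other filament genes near VIM in function were higher in MIR210-KO. Of 6 tested, 6 were higher in hypoxia MIR210-KO against WT and 5 in normoxia, with none lower. In MIR210HG-KO 1 was higher and 2 lower in hypoxia, and 1 higher and 1 lower in normoxia. Of all genes, 28.2% were higher and 27.7% lower in hypoxia MIR210-KO, and 22.6% and 21.6% in normoxia. For MIR210HG-KO the shares were 24.4% and 30.2% in hypoxia, and 15.6% and 19.6% in normoxia. KRT8, a keratin of simple epithelia, had 118 against 28.8 CPM in hypoxia MIR210-KO and WT (2.03 ± 0.069, edgeR adjusted p = 2.09e-21) and 99.7 against 20.4 CPM in normoxia (2.29 ± 0.072, 1.58e-21). The neuronal filament gene PRPH (1.79), the glial GFAP (1.74) and SYNM (0.98) were also higher in hypoxia MIR210-KO. NES, the nestin gene, was lower in MIR210HG-KO in hypoxia (-0.82) and normoxia (-0.91), and KRT18 was lower in hypoxia (-0.67). Both keratins are also among the 6 epithelial markers. Of 12 other mesenchymal markers, 6 were higher and 3 lower in hypoxia MIR210-KO and 4 and 3 in normoxia. In MIR210HG-KO 1 was higher and 7 lower in hypoxia, and 0 and 6 in normoxia. CD44, the hyaluronan receptor, had 7.22 against 2.32 CPM in hypoxia MIR210-KO and WT (1.64 ± 0.17, edgeR adjusted p = 1.38e-09) and 0.937 against 2.32 CPM in hypoxia MIR210HG-KO and WT (-1.29 ± 0.22, 8.20e-06). CDH2, N-cadherin, was lower in MIR210HG-KO (-0.60 in hypoxia, -0.79 in normoxia) and in normoxia MIR210-KO (-0.82).

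Of 14 other transcription factors of the epithelial to mesenchymal transition, 5 were higher and 3 lower in hypoxia MIR210-KO and 2 and 4 in normoxia, with medians of 0.050 and 0.036. In MIR210HG-KO 6 were higher and 6 lower in hypoxia and 4 and 3 in normoxia. For this list and those below, 28.2% of all genes were higher and 27.7% lower in hypoxia MIR210-KO, and 22.6% and 21.6% in normoxia. For MIR210HG-KO the shares were 24.4% and 30.2% in hypoxia, and 15.6% and 19.6% in normoxia. ETS1 was lower in MIR210-KO (-1.68 in hypoxia, -1.20 in normoxia) and in MIR210HG-KO (-0.82 in hypoxia, -0.79 in normoxia). SOX4, an abundant factor here, had 327 against 645 CPM in hypoxia MIR210-KO and WT (-0.98 ± 0.050, edgeR adjusted p = 4.32e-17), and in WT it rose in hypoxia (645 against 262 CPM in normoxia, 1.30). PRRX1 was lower in MIR210HG-KO (-1.13 in hypoxia, -1.23 in normoxia). Of 17 co-repressors and regulators of these factors, 9 were higher and 1 lower in hypoxia MIR210HG-KO and 7 and 1 in normoxia, while MIR210-KO had 5 and 4 in hypoxia and 5 and 5 in normoxia. The co-repressor RCOR1 (0.92) and the histone methyltransferase EZH2 (-1.12) led in hypoxia MIR210HG-KO. Of 17 TGF-beta pathway genes 6 were higher and 6 lower in hypoxia MIR210-KO, led by the ligand TGFB1 (1.14, and 1.36 in normoxia), and 6 were higher and 3 lower in hypoxia MIR210HG-KO, led by the latency protein LTBP3 (0.86).

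Of 37 other matrix glycoproteins and proteoglycans, 20 were higher and 6 lower in hypoxia MIR210-KO (median 0.33), and 10 higher and 14 lower in normoxia (median -0.038). In MIR210HG-KO 15 were higher and 12 lower in hypoxia (median 0.18), and 4 and 12 in normoxia (median -0.14). Of all genes, 28.2% were higher and 27.7% lower in hypoxia MIR210-KO, and 22.6% and 21.6% in normoxia. For MIR210HG-KO the shares were 24.4% and 30.2% in hypoxia, and 15.6% and 19.6% in normoxia. LAMA2, a laminin chain of muscle basement membrane, was higher in MIR210-KO (2.32 in hypoxia, 1.89 in normoxia), as was the microfibril protein MFAP2 (1.75 and 1.40). In WT hypoxia against normoxia 8 of the 37 rose and 21 fell (median -0.55; 29.6% and 30.7% of all genes), while FN1 and TNC rose. AGRN, agrin, had 49.5 against 169 CPM in hypoxia and normoxia (-1.77 ± 0.11, edgeR adjusted p = 3.07e-15), and LAMA5 (-1.65), HSPG2 (-1.62) and FBLN2 (-1.87) also fell. Of 12 receptors of fibronectin and tenascin-C, 7 were higher and 1 lower in hypoxia MIR210-KO, led by the integrin chains ITGA4 (1.66), ITGA8 (1.55), ITGA9 (1.54) and ITGB8 (0.93). In hypoxia MIR210HG-KO 5 were higher and 5 lower, led by ITGB8 (-1.27). Of 5 other collagen receptors, 3 were higher and 1 lower in hypoxia MIR210-KO: ITGA2 (1.36), ITGA10 (1.02) and ITGA1 (0.30) were higher, and DDR1, the sister gene of DDR2, was lower (-0.58). In hypoxia MIR210HG-KO 2 were higher and 0 lower: ITGA10 (1.43) and ITGA2 (0.61).

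**Figure D5:**
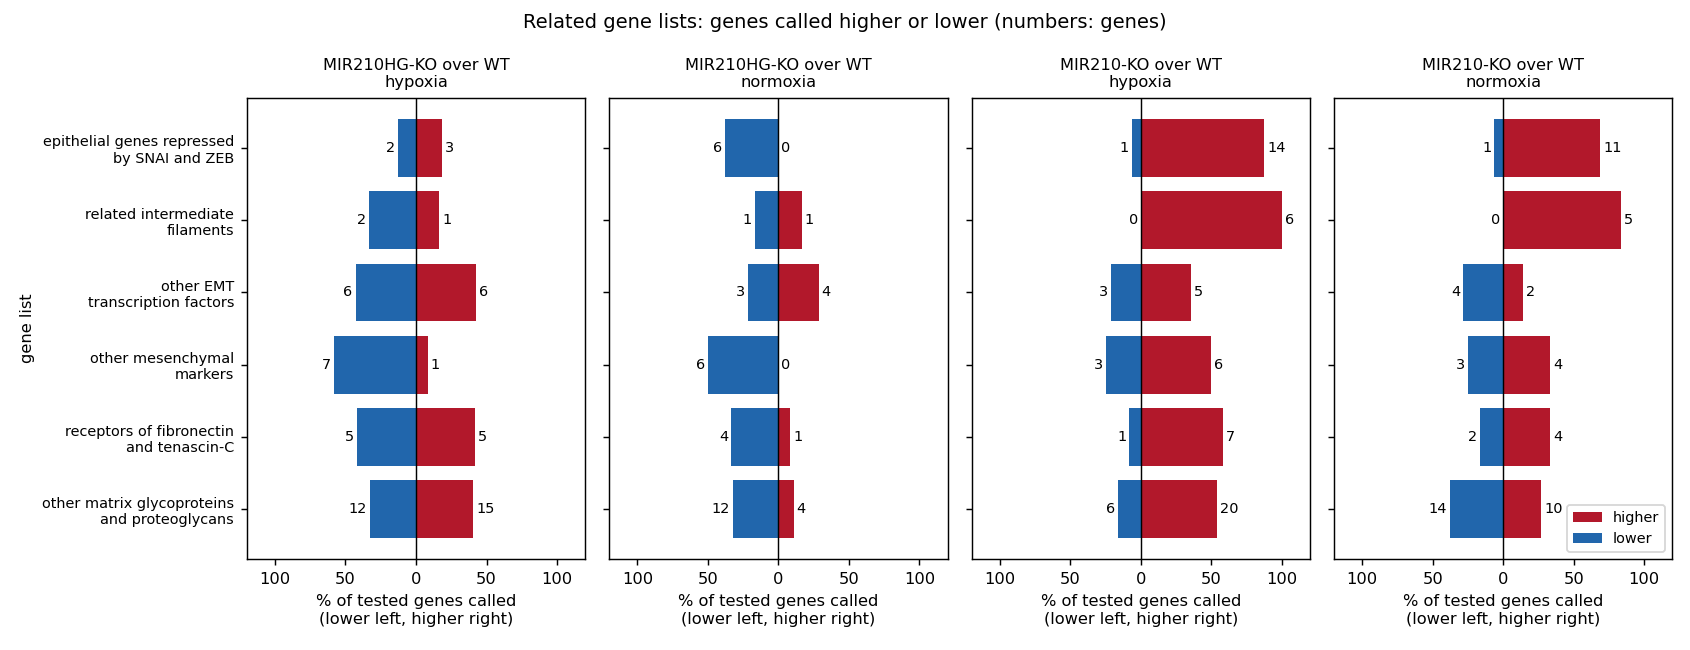
Share of each list's tested genes called higher (right) and lower (left) in MIR210HG-KO and MIR210-KO against WT at each oxygen level. Of the 16 epithelial genes, 14 are higher in hypoxia MIR210-KO (28.2% of all genes) and 3 in hypoxia MIR210HG-KO (24.4%).

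Among 14536 tested protein-coding genes, those whose 6 group means were most like each gene's, by the root mean square difference of centred log2 CPM, were named for 6 of the 9. For ZEB2 they were SYP (0.0479), DDX59 (0.0532) and DNHD1 (0.0617), and for ZEB1 FAM210A (0.0630), LNP1 (0.0658) and VAMP4 (0.0727). For VIM they were LUC7L3 (0.0668), IQCH (0.0790) and ZNF354C (0.0967), and for FN1 CCDC15 (0.0923), C11orf71 (0.133) and ZSCAN30 (0.138). For TNC they were SELENOS (0.140), HSPB6 (0.154) and RBM44 (0.182). DDR2 had no gene as near: NOL4 (0.308), CDYL2 (0.338) and NUPR1 (0.387) came closest. The distance is not scaled to a gene's spread and grows with it. The SD of the group means was 1.61 for DDR2, against 0.414 (ZEB2) to 0.714 (FN1) for the others named. Within the 9, the pair least alike was SNAI2 and DDR2 (1.97).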

How the data were processed

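The deposited files were 2 tables of raw read counts per gene, 1 for each oxygen level, with 12 libraries in each and the gene's symbol, GRCh38 coordinates and length. Per the submitters' processing notes, which name tools without their roles, the authors used edgeR 3.24.3, DESeq2 1.20.0, the counter featureCounts 1.5.0-p3 and the aligner STAR 2.6.1d. Per the labels' protocols RNA was extracted with TRIzol and libraries were made with the NEBNext Ultra RNA kit. The strand setting of the counting is not given in the sources used here, so that antisense neighbours cannot be told apart. Libraries held 25556776 to 37858947 counts, and intervals cover the model's error only.

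The 2 tables were joined by gene ID, low genes were removed with filterByExpr, and libraries were scaled by TMM factors. One mean per group was fitted over all 24 libraries with edgeR 4.0.16 (limma 3.58.1, R 4.3.3), and 12 comparisons were tested with the two-sided quasi-likelihood F test, adjusted over 19952 genes and called at 0.05. Standard errors and 95% intervals come from the F statistic. Levels are CPM on the effective library size, and per kilobase of gene model for comparisons between genes. The scripts were tested on simulated data. The 9 genes and all lists were chosen with earlier results of these data known. All 9 were named in every comparison, and of each list up to 4 called genes with the largest absolute log2 fold change and at least 1 CPM in the higher group in the comparisons described. Alternatives were other filters, upper quartile or RLE factors, DESeq2 1.42.0, fits of the compared groups only, a replicate block, the mitochondrial genome left out, libraries left out, and a covariate for long against short genes that was chosen after the data were seen. Replicate numbers did not pair the samples: 0 of 15 pairs of groups had every same-numbered correlation of deviations above 0.1.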

Additional observations from a re-analysis of the deposited data

Results flagged for a closer look

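The oxygen response of 6 genes differed between MIR210-KO and WT cells by a test of the difference itself, given as the response in MIR210-KO minus that in WT on the log2 scale: TNC by -1.72 ± 0.20 (edgeR adjusted p = 7.51e-08), SNAI2 by -1.23 ± 0.11 (8.31e-10), TWIST1 by -0.54 ± 0.14 (0.00382), ZEB2 by -0.45 ± 0.10 (0.000993), ZEB1 by -0.43 ± 0.10 (0.00182) and VIM by -0.41 ± 0.10 (0.00258). Of all genes tested 26.5% differed in this way.

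The response differed between MIR210HG-KO and WT cells for 5 genes: TNC by -0.84 ± 0.20 (edgeR adjusted p = 0.00204), SNAI2 by -0.81 ± 0.10 (8.52e-07), VIM by -0.55 ± 0.10 (0.000165), ZEB1 by -0.50 ± 0.10 (0.000532) and ZEB2 by -0.39 ± 0.10 (0.00417), against 22.5% of all genes. Between MIR210HG-KO and MIR210-KO cells it differed for TNC by 0.88 ± 0.21 (edgeR adjusted p = 0.0120) and SNAI2 by 0.42 ± 0.11 (0.0304), against 3.54% of all genes, a share that was 2.29% without hypoxia MIR210HG-KO 4, 2.24% without normoxia MIR210-KO 2 and 5.42% without normoxia MIR210HG-KO 3. Each oxygen level is a table of its own, and the WT libraries serve both knockout comparisons. No library lay apart from the other 3 of its group by Dixon's 95% criterion in any of the 54 sets of 4 values that the 9 genes give; by chance about 1 in 20 would.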

How the results depend on the processing

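Of 1079 values of the 9 genes under the alternatives that leave out no single library, 1017 kept direction and call, 9 lost the call, 27 gained it and 26 changed sign; of 1080 values without 1 library 1026, 21, 6 and 27 did so. The cause was not tested for any of them. No value called in the fit over all 24 libraries with TMM factors and no covariate changed sign in any alternative run. In every alternative run SNAI2, TWIST1, ZEB1, ZEB2, FN1, TNC and DDR2 kept their calls against WT in hypoxia MIR210-KO. So did SNAI2, TWIST1, ZEB1, ZEB2, VIM, TNC and DDR2 in hypoxia MIR210HG-KO. With the replicate block, TWIST1 in normoxia MIR210-KO against WT was -0.00035, and the block changed no call other than that of VIM in hypoxia MIR210-KO. Fits of the compared groups only gave -0.0089 for the same TWIST1 value, and no filter on low counts gave -4.1e-06 for it and -0.00049 for the FN1 interaction of MIR210HG-KO minus WT. Leaving out the mitochondrial genome gave -0.0049 for that interaction. Upper quartile factors turned TWIST1 between the knockouts in hypoxia (-0.022), the SNAI2 response in MIR210-KO (0.013) and the TWIST1 response in MIR210HG-KO (0.0054); they also turned the balance of all genes' interactions in MIR210HG-KO minus WT to 2545 higher and 2018 lower, against 2045 and 2441.

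Without the 4 libraries that stood apart, the interactions called between the knockouts were 4 (10.4% of all genes), against 2 (3.54%), and sign changed for SNAI1 in hypoxia MIR210HG-KO against WT (0.073), the TWIST1 response in WT (-0.078), the SNAI1 interactions against WT of MIR210HG-KO (0.31) and MIR210-KO (0.34), and the FN1 interactions of MIR210HG-KO (-0.25) and MIR210-KO (-0.10). With the covariate for long genes 7 of the 9 were called in normoxia MIR210HG-KO against WT, where 40.7% of all genes were called, against 4 and 35.2%. TWIST1 in normoxia MIR210-KO was then -0.019. The SNAI1 response was 0.65 in MIR210HG-KO, 0.46 in MIR210-KO and 0.50 in WT, that of SNAI2 in MIR210-KO 0.019, and those of TWIST1 and TNC in MIR210HG-KO 0.26 and -0.32. The covariate overlaps with oxygen level, so these changed responses cannot be assigned to length or to oxygen. The FN1 interactions against WT were -0.12 for MIR210HG-KO and -0.018 for MIR210-KO, the SNAI1 interaction 0.14 for MIR210HG-KO minus WT and 0.18 between the knockouts, and that of ZEB2 between the knockouts -0.012.

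Leaving out 1 library at a time, the interactions called between the knockouts were 1 to 2, where the share of all genes was 2.29% without hypoxia MIR210HG-KO 4, 2.24% without normoxia MIR210-KO 2 and 5.42% without normoxia MIR210HG-KO 3, and values that changed sign spanned -0.076 to 0.095 (FN1, MIR210HG-KO minus WT), -0.038 to 0.11 (FN1, MIR210-KO minus WT), -0.096 to 0.030 (FN1, between the knockouts), -0.52 to 0.017 (SNAI1, MIR210-KO minus WT), -0.24 to 0.15 (SNAI1, between the knockouts), -0.042 to 0.037 (TWIST1, normoxia MIR210-KO against WT), -0.050 to 0.10 (TWIST1, between the knockouts in hypoxia), -0.041 to 0.13 (TWIST1 response in WT) and -0.066 to 0.013 (ZEB1, normoxia MIR210-KO against WT). SNAI1 had 12 to 44 counts a library, and the part of depth in its changes was not tested.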

Other observations

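Of 7 epithelial antagonists of ZEB proteins tested, 1 was higher and 2 lower in hypoxia MIR210-KO against WT, and 0 higher and 3 lower in hypoxia MIR210HG-KO. In normoxia 2 were higher in MIR210-KO and 2 lower in MIR210HG-KO. Of all genes, 28.2% were higher and 27.7% lower in hypoxia MIR210-KO, and 22.6% and 21.6% in normoxia. For MIR210HG-KO the shares were 24.4% and 30.2% in hypoxia, and 15.6% and 19.6% in normoxia. GRHL1, a grainyhead-like factor of epithelia, was higher in hypoxia MIR210-KO (7.93 against 4.34 CPM, log2 fold change 0.86 ± 0.11, edgeR adjusted p = 4.73e-08) and lower in hypoxia MIR210HG-KO (3.06 against 4.34 CPM, -0.50 ± 0.12, 0.000733). KLF4, a zinc finger factor, was lower in hypoxia in both knockouts (-1.13 in MIR210HG-KO, -0.95 in MIR210-KO) and rose in hypoxia in WT (11.2 against 6.80 CPM in normoxia, 0.72). TNXB, the one other tenascin tested, was higher in MIR210-KO (0.67 in hypoxia, 0.56 in normoxia), where TNC was lower in hypoxia.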
